A study of Rattus norvegicus with 8 samples.

Results

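The genes described here encode subunits and assembly factors of the mitochondrial respiratory chain, the ATP synthase and the adenine nucleotide translocases. They were taken as every probe set whose single gene symbol in the platform annotation begins with Nduf, Sdh, Uqcr, Uqcc, Cox followed by a digit, Coa, Cyc1, Cycs or Atp5, or is Slc25a4 or Slc25a5. This gave 109 probe sets for 61 genes, of 8740 probe sets on the array. A further 8 probe sets carry a matching symbol together with another gene's symbol and were left out, and no probe set for cytochrome c itself remained. Of the 109 probe sets, 104 (60 genes) passed a filter on low mean signal and were tested, among 5244 tested on the whole array.

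The tissue was the soleus, a mitochondria-rich calf muscle that carries posture, profiled on 8 Affymetrix arrays. Walked rats (2 pools) had 12 h of hindlimb unloading followed directly by 2 h of treadmill walking, taken as 30 min bouts alternating with 30 min in the cage over 4 h. Unloaded rats (3 pools) were kept from bearing weight on the hindlimbs for 12 h, and control rats (3 pools) moved freely in their cages over the same 12 h. All rats were female, each array received RNA pooled from 8 to 10 rats, and the sources used here do not give strain or age. P-values therefore measure the spread between pools, not between single animals. Unloaded against control asks how these transcripts differed after 12 h without weight bearing, walked against unloaded how they differed after the walking period that followed, and walked against control where the muscle stood after both. Walked rats also spent the rest bouts in the cage and were taken after a further 4 h, so treadmill walking, cage activity and time cannot be told apart.

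The respiratory chain passes electrons from NADH (at complex I) and from succinate (at complex II) through complex III and cytochrome c to oxygen at complex IV, and the proton gradient this builds drives the ATP synthase. Adenine nucleotide translocases then exchange the new ATP for ADP across the inner membrane. Most subunits are encoded in the nucleus, their amounts are commonly linked to the oxidative capacity of a muscle fibre, and soleus fibres depend on this route for sustained contraction. All members here are nuclear genes.

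As a check of the tissue, 10 muscle fibre genes of a list of 13 were tested, and their summed signal was 33629 to 41099 in walked, 28967 to 39347 in unloaded and 25505 to 27078 in control arrays. Signals are MAS5 intensities on a linear scale, rescaled so that all arrays share a trimmed mean, and a signal compares arrays for one probe set but not one probe set with another. Of these fibre markers, 0 were called in unloaded against control and 4 were called higher in walked against control, the slow myosin gene Myh7 (1 of 2 probe sets, log2 fold change 1.06), the skeletal actin gene Acta1 (1.07), the creatine kinase gene Ckm (0.93) and the slow troponin gene Tnni1 (0.58). The fast-fibre markers Myh2, Tnni2, Myh4 and Tnnt3 were not called in that comparison, with values of -0.36, -0.30, -0.39 and -0.06, and Myh2 (-0.64) and Tnni2 (-0.83) were called lower in walked than in unloaded soleus. Smooth muscle markers summed to 2317 to 2513 in walked, 1588 to 1935 in unloaded and 2633 to 3069 in control arrays, with 3 of 8 probe sets called lower in unloaded than in control. Fibroblast markers summed to 10355 to 10790 in walked, 12500 to 17689 in unloaded and 9011 to 13440 in control arrays, with 5 of 13 probe sets called higher in unloaded than in control, 4 of them for decorin (Dcn) and 1 for lumican (Lum). The median log2 fold change of the 13 was -0.03. In walked against unloaded soleus 2 of the 13 were called lower (1 each of Dcn and the collagen gene Col1a1), and in walked against control 2 were called higher (Dcn) and 2 lower (Col1a1). The part of these cell type differences in the results below was not tested. In whole muscle, fewer cells of a type and less RNA per cell cannot be told apart. Over the tested members, the log2 signals of arrays correlated at 0.969 to 0.987 within groups and 0.917 to 0.984 between groups. Control pool 3 stood furthest out, with the highest of the 8 signals in 34 of the 104 tested members.

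**Figure D1:**
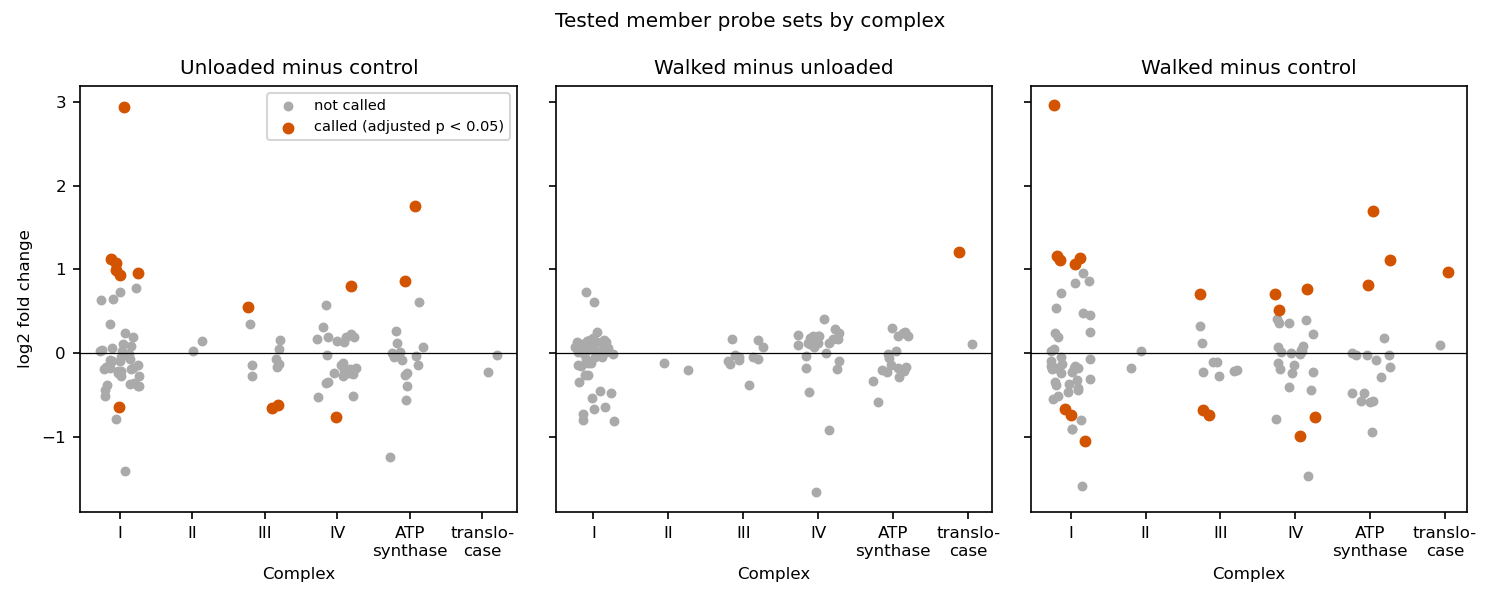
Log2 fold change (y axis) of each of the 104 tested member probe sets, by complex as sorted from gene names (x axis), for unloaded minus control, walked minus unloaded and walked minus control. Orange points are called and grey points are not; the called points are 14, 1 and 20 in these comparisons, and most grey points lie within 0.5 of the zero line.

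After 12 h of unloading, 10 genes of this set rose and 3 fell. Most members stayed close to their control level, as did most tested probe sets on the array. The genes that rose were 6 named for complex I (Ndufs1, Ndufb3, Ndufb1, Ndufa5, Ndufa4 and Ndufa3), the ATP synthase stalk genes Atp5pd and Atp5pf, Cox7b of complex IV and Uqcrc2 of complex III. Those that fell were the assembly factors Coa3 and Uqcc2 and the complex I subunit Ndufb5. A change is called, and described as a rise or a fall, where limma's Benjamini-Hochberg adjusted p over all 5244 tested probe sets was under 0.05. By this rule 14 of the 104 tested members (13.5%) were called, 10 higher (9.62%) and 4 lower (3.85%), against 7.3% of all tested probe sets, 3.99% higher and 3.32% lower. The median log2 fold change of the tested members was -0.08, and that over all tested probe sets was also -0.08. Under quantile normalization the medians were -0.13 for the members and -0.04 for all. Of the 104 members, 77 lay within 0.5 of 0, against 4010 of all 5244 tested probe sets. The groups did not overlap for 34 of the 104 (32.7%), against 26.4% of all tested probe sets; unloaded arrays lay above in 15 (14.4%, against 10.2% of all) and below in 19 (18.3%, against 16.1%).

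Ndufs1 is the largest core subunit of complex I and holds several of its iron-sulfur clusters. Its probe set (AA686031_at) had signals of 371 and 300 in walked arrays and 323, 316 and 346 in unloaded arrays, against 44.7, 67.2 and 26.4 in control arrays. Every walked and unloaded array was more than 4 times the brightest control array. The log2 fold change of unloaded over control was 2.93 ± 0.28 (SE, 7.63-fold, adjusted p = 0.0001004). The control signals were dim for this array, so the size of the fold is imprecise. Walked and unloaded soleus differed by 0.02 on the log2 scale, with a 95% interval of -0.66 to 0.71.

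The other complex I genes that rose encode small accessory subunits, which surround the catalytic core and are needed for its assembly. Ndufa5 (D86215_at) had signals of 1994 and 1841 in walked arrays and 1762, 1949 and 1770 in unloaded arrays, against 1001, 992 and 768 in control arrays. The unloaded signals were about double those of the controls, with no overlap, and the log2 fold change was 1.00 ± 0.13 (SE, adjusted p = 0.000956). Ndufb3 (rc_AA799499_at) had 2170 and 2263 in walked, 1750, 2047 and 2823 in unloaded, and 1112, 845 and 1044 in control arrays. Its unloaded arrays were spread widely, yet the lowest of them was above the highest control, and the log2 fold change was 1.12 ± 0.18 (SE, adjusted p = 0.00285). Ndufb1 (rc_AA899320_at) had 555 and 636 in walked, 543, 653 and 523 in unloaded, and 365, 205 and 266 in control arrays, a log2 fold change of unloaded over control of 1.07 ± 0.20 (SE, adjusted p = 0.00733).

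Ndufa4 carries a complex I name but is now placed in complex IV. Its signals (rc_AI169265_at) were 3129 and 2620 in walked, 2300, 2293 and 3248 in unloaded, and 1468, 1491 and 1069 in control arrays. Each unloaded array was above each control array, and the log2 fold change was 0.96 ± 0.18 (SE, adjusted p = 0.00733). Ndufa3 (rc_AA875107_at), a small membrane subunit of complex I, had 759 and 678 in walked, 744, 624 and 760 in unloaded, and 386, 543 and 240 in control arrays. Its control arrays were far apart, and its call (log2 fold change 0.94 ± 0.24 SE, adjusted p = 0.0401) was lost when any 1 array other than control pool 2 was left out, with an adjusted p of up to 0.124.

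Atp5pd and Atp5pf encode subunits d and F6 of the peripheral stalk, the part of the ATP synthase that holds the catalytic head still while the rotor turns. Atp5pd (D13120_s_at) had signals of 3115 and 3194 in walked arrays and 3469, 3109 and 3256 in unloaded arrays, against 997, 1047 and 882 in control arrays. The walked and unloaded arrays sat together at about 3 times the control level, with a log2 fold change of unloaded over control of 1.75 ± 0.11 (SE, 3.37-fold, adjusted p = 4.8e-06). The name of this probe set carries an s, which marks probes that can match several transcripts. Atp5pf had 2558 and 2873 in walked, 2233, 2839 and 1866 in unloaded, and 1326, 1164 and 1276 in control arrays by its brighter probe set (X54510_at), with a log2 fold change of 0.86 ± 0.15 (SE, adjusted p = 0.00594). By its other probe set (X54510_g_at) the log2 fold change was 0.61 ± 0.17 (SE) and the adjusted p was 0.0505, just past the threshold.

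The other peripheral stalk genes were not called. Atp5pb, subunit b, had a log2 fold change of -0.05 in unloaded over control, and the 2 probe sets of Atp5po, the subunit that joins stalk to head, had -0.03 and -0.24. The 7 probe sets for F1 subunits of the ATP synthase (5 genes) had 0 calls by limma. Their log2 fold changes were -0.26 to 0.26. At an unadjusted p under 0.05 limma gave 1 higher, against 482 of all 5244 tested probe sets. Atp5f1b, the catalytic beta subunit, had 3965 and 4394 in walked, 4599, 4626 and 4759 in unloaded, and 4070, 4238 and 4962 in control arrays. The unloaded and control arrays overlapped, while both walked arrays lay below all unloaded arrays. Atp5if1 encodes the inhibitor that binds the head when the proton gradient collapses. Of its 4 probe sets 0 were called, and their log2 fold changes were -1.23 to 0.01. At an unadjusted p under 0.05, 3 of the 4 were lower, against 644 of all 5244 tested probe sets. The lowest of these values came from a dim probe set, with 14.9 to 28.9 in unloaded and 44.9 to 53.9 in control arrays. Without unloaded pool 3, 3 of the 4 were called lower.

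Cox7b encodes a small structural subunit of complex IV. Its signals (rc_AA866477_at) were 2899 and 2567 in walked, 2932, 2858 and 2622 in unloaded, and 1622, 1693 and 1503 in control arrays. The unloaded arrays were all above the controls, with a log2 fold change of 0.80 ± 0.11 (SE, 1.75-fold, adjusted p = 0.00139). Uqcrc2, a core protein of complex III related to mitochondrial processing peptidases, had 2076 and 2321 in walked, 2232, 1842 and 1859 in unloaded, and 1316, 1324 and 1389 in control arrays (rc_AI235358_at). Its log2 fold change was 0.55 ± 0.12 (SE, adjusted p = 0.0169), and the call was lost without control pool 1, control pool 2 or unloaded pool 1 (adjusted p up to 0.0672).

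**Figure D2:**
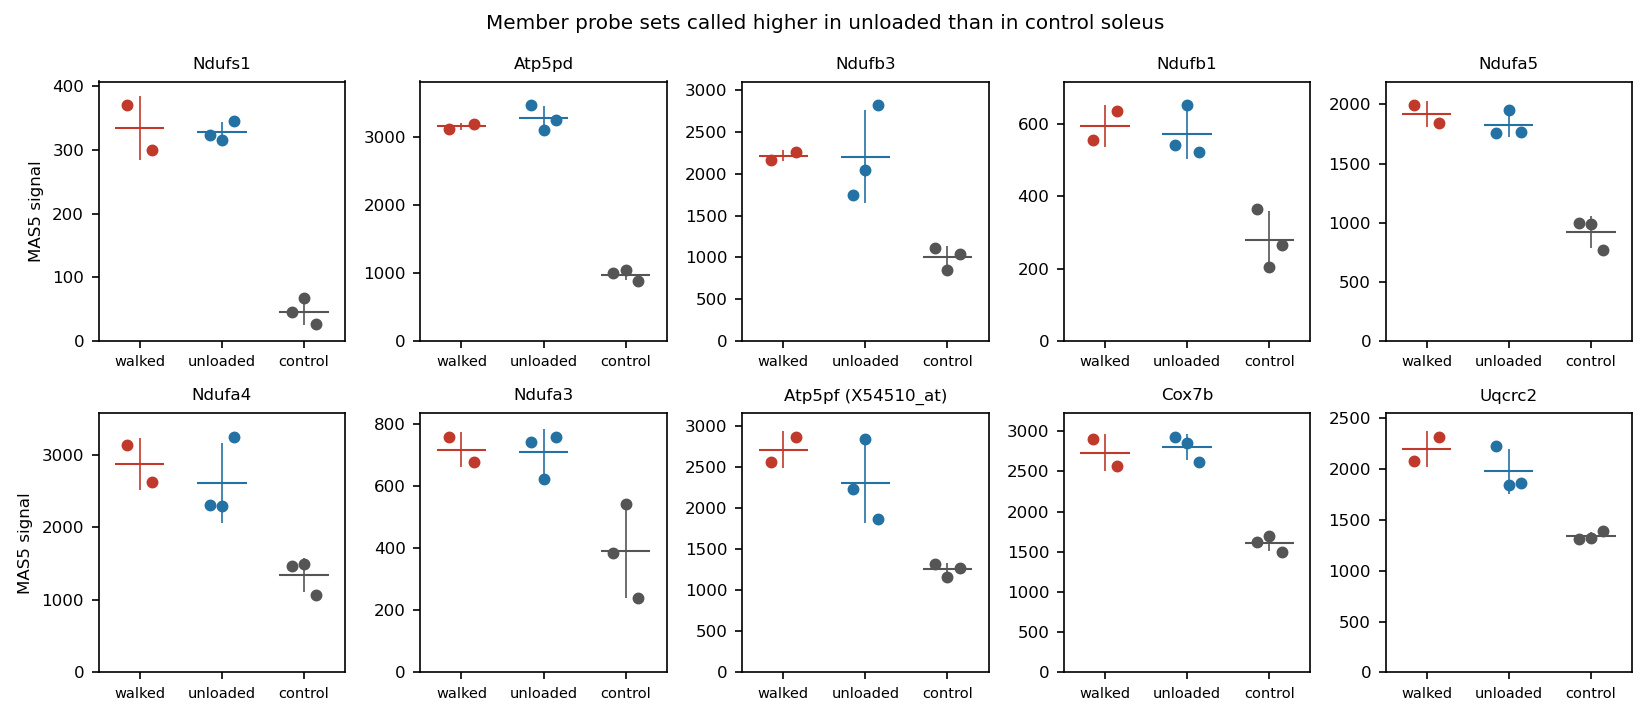
MAS5 signal (y axis, linear, from 0) of the 10 member probe sets called higher in unloaded than in control soleus, by group (x axis: walked, unloaded, control); each point is an array, the line is the group mean and the bar is ±1 SD. In all 10 panels every walked and unloaded array lies above every control array, and the walked and unloaded points share the same range or lie close together.

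Of the 4 probe sets that fell after unloading, 3 belonged to the assembly factors Coa3 and Uqcc2; such factors help to build the complexes without staying in them. They were 3 of 9 tested probe sets counted as assembly factors (5 genes), 2 of them for Uqcc2, against 3.32% of all tested probe sets called lower. Ndufaf3, Uqcc4 and Sdhaf2 had no call. Cox7a2l, an assembly factor of supercomplexes, was counted as an accessory subunit and is not among the 9. Its probe sets were at 0.14 and 0.20 and not called. Coa3, which acts early in the assembly of complex IV around its Cox1 subunit, had signals of 124 and 144 in walked, 143, 129 and 128 in unloaded, and 199, 257 and 226 in control arrays (rc_AA799543_i_at). Its log2 fold change was -0.77 ± 0.16 (SE, adjusted p = 0.0125), with no overlap, and the call was lost without control pool 2 (adjusted p = 0.0519). Uqcc2, which stabilises newly made cytochrome b for complex III, had 582 and 529 in walked, 584, 536 and 654 in unloaded, and 813, 959 and 1014 in control arrays by its brighter probe set (rc_AA891727_g_at). Both of its probe sets were called, at log2 fold changes of -0.65 ± 0.14 (SE, adjusted p = 0.0141) and -0.61 ± 0.16 (SE, adjusted p = 0.0385). The first lost its call without unloaded pool 1 or 2, and the other without any 1 array other than unloaded pool 3 (adjusted p up to 0.128).

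Ndufb5, an accessory subunit in the membrane arm of complex I, had 526 and 544 in walked, 485, 416 and 577 in unloaded, and 818, 727 and 743 in control arrays by its called probe set (AA684537_at, log2 fold change -0.64 ± 0.14 SE, adjusted p = 0.0187). Its other, brighter probe set had a log2 fold change of -0.27 (adjusted p = 0.199). The call was lost without control pool 1, unloaded pool 1 or unloaded pool 2, with an adjusted p of up to 0.075.

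Complex II and most of complexes III and IV were not called. Sdha, the flavoprotein of succinate dehydrogenase, had 1606 and 1697 in walked, 1822, 1968 and 1885 in unloaded, and 1722, 1876 and 1998 in control arrays, a log2 fold change of unloaded over control of 0.02 with a 95% interval of -0.22 to 0.27. Its flavinylation factor Sdhaf2 was at 0.15. The 3 probe sets of Uqcrfs1, the Rieske iron-sulfur protein of complex III, lay between -0.12 and 0.16, and Cyc1, cytochrome c1, was at 0.35. In complex IV the 3 probe sets of Cox4i1, the usual isoform of subunit IV, lay between -0.26 and 0.20, and Cox5a, Cox5b and Cox6b1 between -0.35 and -0.23. Probe sets were sorted into complexes by gene name, which puts Ndufa4, its relative Ndufa4l2 and the assembly factor Ndufaf3 under complex I. The median log2 fold change was -0.09 over 46 probe sets of complex I, 0.08 over 2 of complex II and -0.12 over 11 of complex III. It was -0.16 over 26 of complex IV and -0.03 over 17 of the ATP synthase. The largest uncalled log2 fold change below 0 was that of a dim probe set, 1 of 4 for the iron-sulfur subunit Ndufs8 (-1.40 ± 0.62 SE, adjusted p = 0.217), and the largest above 0 that of Ndufs4 (0.77 ± 0.43 SE, adjusted p = 0.336). The other Ndufs8 probe sets lay between -0.36 and 0.11.

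Probe sets of the same gene did not always move together. Of 29 genes with at least 2 tested probe sets, 20 had log2 fold changes of one sign in unloaded over control. Among these 29, Uqcc2 was the gene with every probe set called. The others were Atp5f1d, Atp5f1e, Atp5if1, Atp5pf and Atp5po of the ATP synthase, Cox4i1, Cox5b, Cox6a1, Cox6a2, Cox6b1, Cox6c, Cox7a2l, Cox8a and Cox8b of complex IV, Ndufa4l2, Ndufa6, Ndufab1, Ndufaf3, Ndufb5, Ndufb6, Ndufb8, Ndufc1, Ndufs4, Ndufs8 and Ndufv3 named for complex I, and Uqcc4, Uqcr11 and Uqcrfs1 of complex III. The widest spread within a gene was that of Ndufs8.

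Start regions of some of the genes that rose or fell are shown so that their letters can be read beside the values. RefSeq start regions (rat assembly GRCr8, 250 bases before to 50 bases after the transcript start) were matched for 52 of the 61 genes. Fixed letter motifs were searched on both strands: GCGCA and GCGC with 1 base between them for NRF1, CCGGAAG for ETS factors, AAGATGG for YY1 and CAAGGTCA for ERR factors. The NRF1 letters were in 7 of the 52 member regions (13.462%) and in 4.255% of all 33469 start regions. The ETS letters were in 12 (23.077%, against 8.745% of all), the YY1 letters in 14 (26.923%, against 7.006%) and the ERR letters in 1 (1.923%, against 1.521%). The member regions had a median GC content of 57.0%, against 51.67% over all regions, and a median of 20.5 CpG pairs, against 7.0, so the shares are not matched on base composition. Within the set, the 9 matched genes that rose after unloading held the NRF1 letters in 1, ETS in 3 and YY1 in 3. The 3 matched genes that fell held them in 1, 0 and 1. The 40 matched genes that were tested and not called held them in 5, 9 and 10. The regions of Ndufs1, Ndufa5, Atp5pf and Uqcc2 are printed 5′ to 3′ on the gene's strand, with the matched motif letters in capitals. Each of these regions holds a match. Those of Cox7b, Ndufa4, Ndufb1, Ndufb3, Coa3 and Ndufb5 hold none of the motifs and are not printed. In Ndufs1 (chr9:72073556-72073855, minus strand) the ETS letters begin 199 bases before the start, in Ndufa5 (chr4:53971186-53971485, minus strand) the NRF1 letters begin 32 bases before it, in Atp5pf (chr11:37375052-37375351, minus strand) the YY1 letters begin 111 and the ETS letters 84 bases before it, and in Uqcc2 (chr20:5216334-5216633, minus strand) the NRF1 letters begin 19 bases before it and the YY1 letters lie within the transcribed part. A match describes the letters of the window and is not a binding site.
Ndufs1: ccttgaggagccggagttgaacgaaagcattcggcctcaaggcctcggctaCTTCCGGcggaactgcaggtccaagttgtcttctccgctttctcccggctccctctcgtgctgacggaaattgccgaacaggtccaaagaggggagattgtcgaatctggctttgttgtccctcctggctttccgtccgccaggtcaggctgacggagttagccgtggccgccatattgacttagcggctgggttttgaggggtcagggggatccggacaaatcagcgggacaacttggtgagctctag
Ndufa5: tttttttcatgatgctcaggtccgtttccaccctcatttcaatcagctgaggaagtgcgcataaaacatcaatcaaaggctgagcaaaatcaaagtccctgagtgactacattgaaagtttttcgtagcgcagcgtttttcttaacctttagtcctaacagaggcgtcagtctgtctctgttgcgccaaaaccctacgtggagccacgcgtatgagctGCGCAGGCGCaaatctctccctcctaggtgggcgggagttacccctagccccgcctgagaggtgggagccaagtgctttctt
Atp5pf: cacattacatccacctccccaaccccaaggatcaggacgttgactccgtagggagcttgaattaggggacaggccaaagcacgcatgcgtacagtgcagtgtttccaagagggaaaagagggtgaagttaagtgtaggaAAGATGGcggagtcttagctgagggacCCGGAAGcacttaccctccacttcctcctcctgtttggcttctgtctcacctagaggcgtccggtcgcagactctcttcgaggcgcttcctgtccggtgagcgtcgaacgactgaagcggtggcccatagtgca
Uqcc2: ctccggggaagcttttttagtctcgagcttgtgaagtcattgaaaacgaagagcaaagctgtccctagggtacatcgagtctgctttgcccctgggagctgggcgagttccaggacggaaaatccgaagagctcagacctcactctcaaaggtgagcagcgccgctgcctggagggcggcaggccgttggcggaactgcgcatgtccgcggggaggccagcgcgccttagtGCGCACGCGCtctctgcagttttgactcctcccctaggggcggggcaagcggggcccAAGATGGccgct

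Walking after unloading was followed by a rise of 1 member, Slc25a5, the translocase isoform ANT2 that is usual in growing and non-muscle cells. Its signals (D12771_s_at) were 884 and 1071 in walked arrays, against 444, 367 and 463 in unloaded arrays and 496, 483 and 507 in control arrays. Both walked arrays lay above all 6 others. The log2 fold change of walked over unloaded was 1.20 ± 0.15 (SE, 2.30-fold, adjusted p = 0.000622), and of walked over control 0.97 ± 0.15 (SE, adjusted p = 0.00386); the second call was lost without walked pool 2 (adjusted p = 0.0678). Unloaded over control was -0.23 ± 0.14 (SE, adjusted p = 0.382). Its probe set carries an s in its name and can match several transcripts. Slc25a4, ANT1, the isoform of heart and skeletal muscle, had 4825 and 5702 in walked, 4989, 4981 and 4574 in unloaded, and 5040, 4521 and 5160 in control arrays. These groups overlapped, and its log2 fold changes were 0.11 for walked over unloaded, 0.10 for walked over control and -0.02 for unloaded over control. None of the 4 motifs was found in the Slc25a5 start region (chrX:120897366-120897665, plus strand), which is shown beside those of some of the genes that moved after unloading.
Slc25a5: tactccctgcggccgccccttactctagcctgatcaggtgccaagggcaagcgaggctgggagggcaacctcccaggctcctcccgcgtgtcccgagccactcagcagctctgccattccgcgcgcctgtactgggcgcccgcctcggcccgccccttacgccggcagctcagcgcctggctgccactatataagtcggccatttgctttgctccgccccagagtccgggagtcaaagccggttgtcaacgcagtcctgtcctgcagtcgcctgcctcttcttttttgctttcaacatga

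In this comparison the 1 called member was 0.962% of the 104 tested, against 4.2% of all tested probe sets (2.73% higher and 1.47% lower). At an unadjusted p under 0.05 limma gave 2 higher and 11 lower of the 104 tested members, against 366 higher and 549 lower of all 5244 tested probe sets. Without walked pool 1, which leaves walked pool 2 alone and takes the spread from the other groups, the count was 3, with both Cox7a2l probe sets added as lower; without unloaded pool 2 it was 2, with Ndufaf3 added as lower. The median log2 fold change of the tested members was 0.02, against -0.05 over all tested probe sets. Of the 104 members, 92 lay within 0.5 of 0, against 4027 of all 5244 tested probe sets. The groups did not overlap for 26 members (25%), against 35.3% of all tested probe sets; walked arrays lay above in 8 (7.69%, against 13.5% of all) and below in 18 (17.3%, against 21.8%). The 14 probe sets called after unloading lay close to their unloaded level: their log2 fold changes of walked over unloaded were -0.09 to 0.25, with 95% intervals inside -0.66 to 0.71, and 0 of the 14 were called by limma or had an unadjusted p under 0.05. Walked against unloaded uses the same unloaded arrays as unloaded against control, so these values are given side by side and are not independent. A p that misses the threshold does not show that the levels were equal.

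Of the 7 tested probe sets for F1 subunits of the ATP synthase, 0 were called by limma in walked against unloaded soleus. At an unadjusted p under 0.05, 2 of the 7 were lower, against 549 of all 5244 tested probe sets. The log2 fold changes of the 7 were -0.33 to -0.14, and over the whole array 2902 of 5244 tested probe sets were below 0. The walked and unloaded arrays did not overlap for 4 of the 7, against 35.3% of all tested probe sets. In these 4 the walked arrays lay below, against 21.8% of all. For Atp5f1d, the delta subunit of F1, the brighter probe set had 2347 and 2068 in walked, 2672, 2321 and 2673 in unloaded, and 2513, 2549 and 3022 in control arrays, so the walked and unloaded arrays overlapped. The largest uncalled log2 fold change below 0 was that of Cox7a2l, an assembly factor of respiratory supercomplexes, at -1.66 ± 0.60 (SE, adjusted p = 0.168), and the largest above 0 that of 1 dim probe set of Ndufb8, at 0.74 ± 0.33 (SE, adjusted p = 0.280). The Cox7a2l value rested on walked pool 2, whose signal was 83.4, against 580 in walked pool 1 and 627, 668 and 798 in unloaded arrays.

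**Figure D3:**
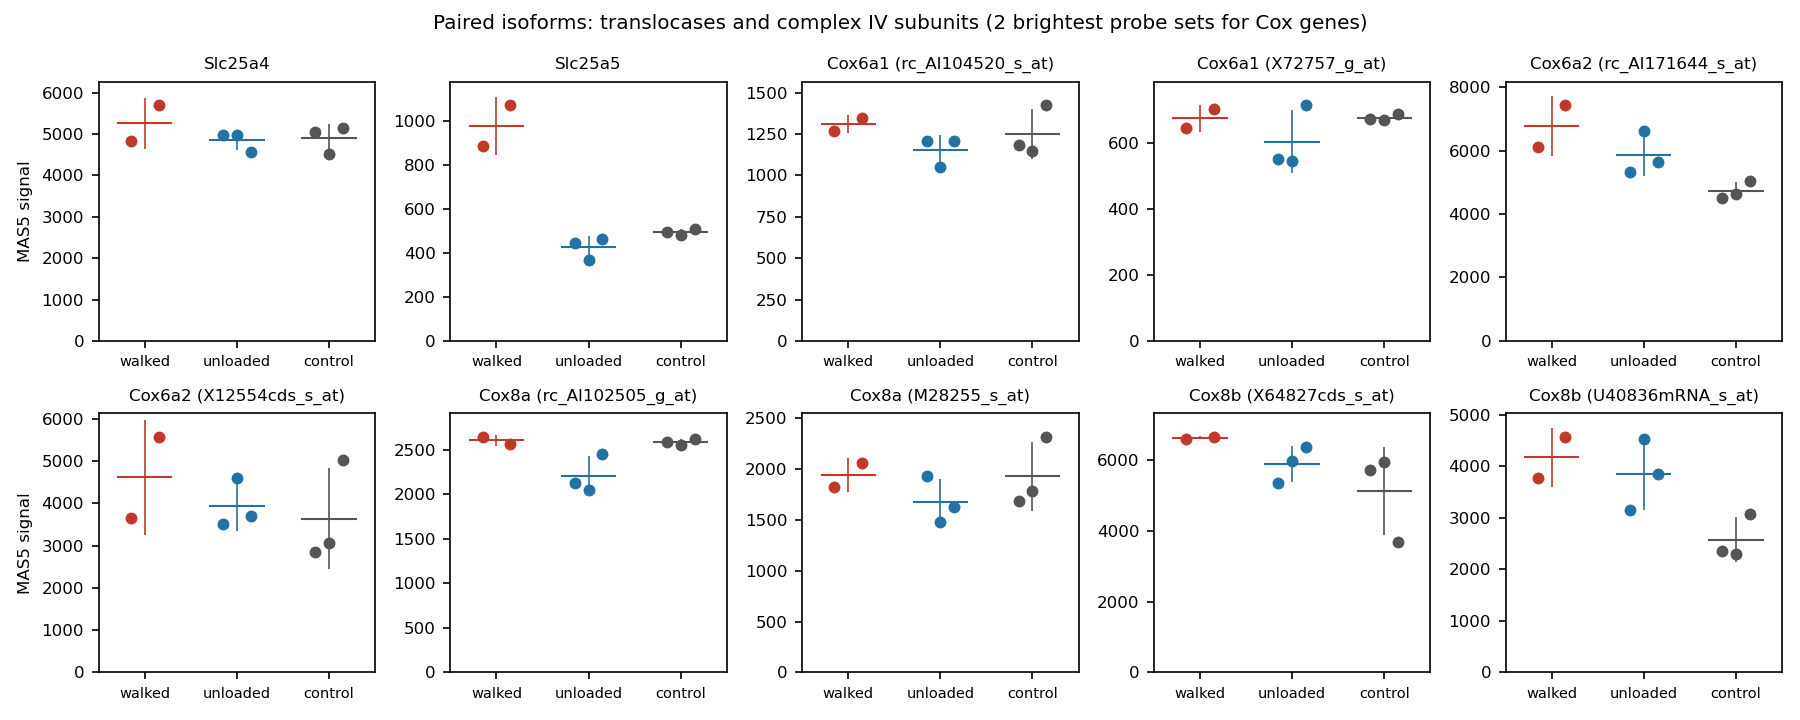
MAS5 signal (y axis, linear, from 0) of the translocases Slc25a4 and Slc25a5 and of the isoform pairs Cox6a1 and Cox6a2, Cox8a and Cox8b (2 brightest probe sets each), by group (x axis: walked, unloaded, control); points are arrays, lines are means and bars are ±1 SD. Slc25a5 is the panel in which both walked arrays, at 884 and 1071, stand far above all others.

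Against control, walked soleus had 12 genes of the set higher and 6 lower. By probe set, 20 of the 104 tested members (19.2%) were called, 13 higher (12.5%) and 7 lower (6.73%), against 9.08% of all tested probe sets, 4.46% higher and 4.61% lower. The median log2 fold change was -0.11 for the tested members and -0.11 for all tested probe sets (under quantile normalization, -0.20 for the members and -0.06 for all). Of the 104 members, 67 lay within 0.5 of 0, against 3663 of all 5244 tested probe sets. The groups did not overlap for 59 members (56.7%), against 43% of all tested probe sets; walked arrays lay above in 21 (20.2%, against 15.5% of all) and below in 38 (36.5%, against 27.6%). The count of 20 called members rests on the 2 walked arrays, and leaving out either of them lowered it. Without control pool 2 it was 13. The calls over all probe sets also changed with the array left out, and both ranges are given below. Ndufs1, Atp5pd and Ndufa5 were the 3 genes called under every alternative that tested them and with any 1 array left out.

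The comparison shares its control arrays with unloaded against control, and the values for walked over control are therefore given beside those above without counting them as further evidence. The log2 fold change of walked over control was 2.96 ± 0.31 for Ndufs1, 1.70 ± 0.13 for Atp5pd, 1.16 ± 0.20 for Ndufb3, 1.13 ± 0.22 for Ndufb1, 1.11 ± 0.20 for Ndufa4 and 1.07 ± 0.15 for Ndufa5 (SE). Atp5pf was at 1.11 and 0.82 by its 2 probe sets, both called, Cox7b at 0.77 and Uqcrc2 at 0.71. Ndufa3 was at 0.96 and just missed the threshold (adjusted p = 0.0502). Coa3 was at -0.76 and the Uqcc2 probe sets at -0.74 and -0.68, all called, while Ndufb5 was at -0.51 (adjusted p = 0.0689).

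Members called in walked against control but not in unloaded against control included the muscle isoforms of complex IV. Whether the effects differ is the test of walked against unloaded, which called Slc25a5 and none of the muscle isoforms. Cox8b, the heart and muscle isoform of subunit VIII, had 3771 and 4576 in walked, 3152, 4522 and 3860 in unloaded, and 2352, 2304 and 3076 in control arrays by its called probe set (U40836mRNA_s_at). Walked and unloaded arrays were all above the controls, and the log2 fold change was 0.70 ± 0.18 (SE, adjusted p = 0.0379) for walked over control and 0.57 (adjusted p = 0.0595) for unloaded over control. Cox6a2, the heart and muscle isoform of subunit VIa, had 6101 and 7434 in walked, 5337, 6608 and 5644 in unloaded, and 4507, 4617 and 5039 in control arrays (rc_AI171644_s_at), with a log2 fold change of walked over control of 0.51 ± 0.14 (SE, adjusted p = 0.0432). The other tested probe sets of Cox8b and Cox6a2 were at 0.41 and 0.36 and not called. Their widely expressed counterparts Cox8a (4 probe sets, -0.22 to 0.09) and Cox6a1 (3 probe sets, -0.01 to 0.23) had no call in any comparison with all arrays; without unloaded pool 3, 1 Cox8a probe set was called lower in unloaded than in control (-0.75, adjusted p = 0.0103, against -0.51 with all arrays). The muscle isoform calls were lost without either walked pool or without control pool 1 or 2, and the difference between isoforms was not tested. The summed fibre markers given above were higher in walked than in control arrays, while the fast-fibre markers Myh2, Tnni2 and Myh4 were not, and the part of either in these values was not tested.

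The members called lower in walked against control, but not in unloaded against control, were Ndufaf3, Ndufb8, Ndufc2 and Cox6c. Ndufc2, an accessory subunit in the membrane arm of complex I, had 833 and 943 in walked, 1223, 1143 and 1328 in unloaded, and 1220, 1527 and 1470 in control arrays. Both walked arrays lay below all 6 others, with log2 fold changes of -0.66 ± 0.15 (SE, adjusted p = 0.0212) against control and -0.47 (adjusted p = 0.111) against unloaded soleus. Ndufaf3, a complex I assembly factor, had 233 and 233 in walked, 367, 271 and 381 in unloaded, and 389, 367 and 407 in control arrays by its called probe set, a log2 fold change of walked over control of -0.73 ± 0.17 (SE, adjusted p = 0.0269). Its other probe sets were at -0.38 and -0.17.

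Cox6c, a small subunit of complex IV, had 136 and 206 in walked, 202, 234 and 257 in unloaded, and 338, 316 and 339 in control arrays by its dimmer probe set (M27467_at), a log2 fold change of walked over control of -0.98 ± 0.20 (SE, adjusted p = 0.0132). Its brighter probe set (M27466_at) was at 0.03. Ndufb8, a membrane arm subunit of complex I, was called lower by 1 dim probe set (rc_AA999168_at, -1.04 ± 0.27 SE, adjusted p = 0.0361). Another probe set of like mean signal (rc_AA851403_at) was at 0.46, and the remaining ones at -0.17 and 0.48. These probe sets of one gene disagreed. The calls of Ndufc2, Ndufaf3 and Ndufb8 were lost without either walked pool, and that of Cox6c without walked pool 1. Those of Ndufaf3 and Ndufb8 were also lost without control pool 1, 2 or 3, and that of Ndufc2 without control pool 2. The largest uncalled log2 fold change below 0 was that of 1 of 5 dim probe sets of Ndufa4l2, a relative of Ndufa4 known as a hypoxia target, at -1.58 ± 0.68 (SE, adjusted p = 0.178), and the largest above 0 was that of Ndufa3.

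**Figure D4:**
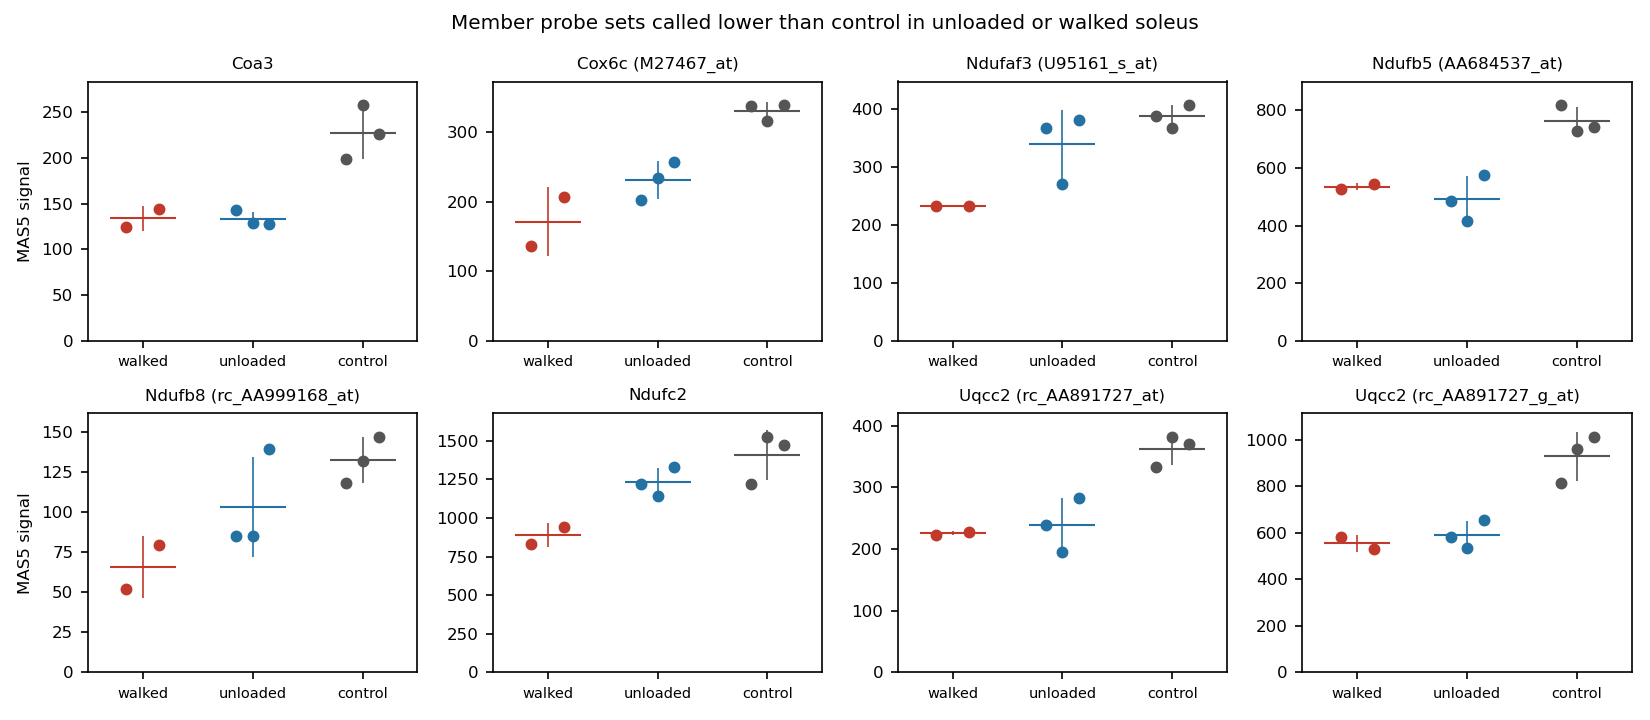
MAS5 signal (y axis, linear, from 0) of the 8 member probe sets called lower than control in unloaded or walked soleus, by group (x axis: walked, unloaded, control); points are arrays, lines are means and bars are ±1 SD. Coa3, Ndufb5 and both Uqcc2 probe sets are low in walked and unloaded arrays alike, while Ndufaf3 and Ndufc2 are lowest in walked arrays.

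Genes outside the set but on the same route were counted from lists. Of 22 listed regulators of mitochondrial biogenesis, 8 were on the array and 6 were tested (Creb1, Esrra, Ppara, Ppard, Ssbp1 and Thra, 9 probe sets). Ppargc1a, Nrf1 and Tfam were among those not tested. Of the 6, 0 were called by limma in any comparison. The lowest adjusted p was that of Esrra in unloaded over control (log2 fold change -0.53, adjusted p = 0.0505). Of 18 probe sets for assembly and import genes, 1 was called higher after unloading, for the chaperonin Hspe1 (log2 fold change 0.80). The other Hspe1 probe set (0.43) was not called. In walked against control Hspe1 (0.57 and 0.93) and its partner Hspd1 (0.49) were called higher and the processing peptidase Pmpca (-0.79) lower. The other probe sets of Hspd1 (1.01) and Pmpca (-0.63) were not called there. Among 18 probe sets for other carriers and channels, the uncoupling protein Ucp3 was called by both of its probe sets in every comparison: 1.29 and 1.08 in unloaded over control, -2.04 and -2.00 in walked over unloaded, and -0.75 and -0.93 in walked over control. Of 12 probe sets for other routes of electron entry, those of the electron transfer flavoprotein gene Etfa were called lower in walked than in unloaded soleus (-0.55 and -0.64). Against control, 1 Etfa probe set was called lower in walked soleus (-0.48) and the other (-0.50) was not called. Of 18 probe sets for the citrate cycle and pyruvate dehydrogenase, 0 were called after unloading or between walked and unloaded soleus. In walked against control Idh2 (0.51) was called higher and Pdhx (-0.71) lower. The other Idh2 probe set (0.33) was not called. Citrate synthase, Cs, was at 0.34 in unloaded over control and -0.23 in walked over unloaded and was not called.

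**Figure D5:**
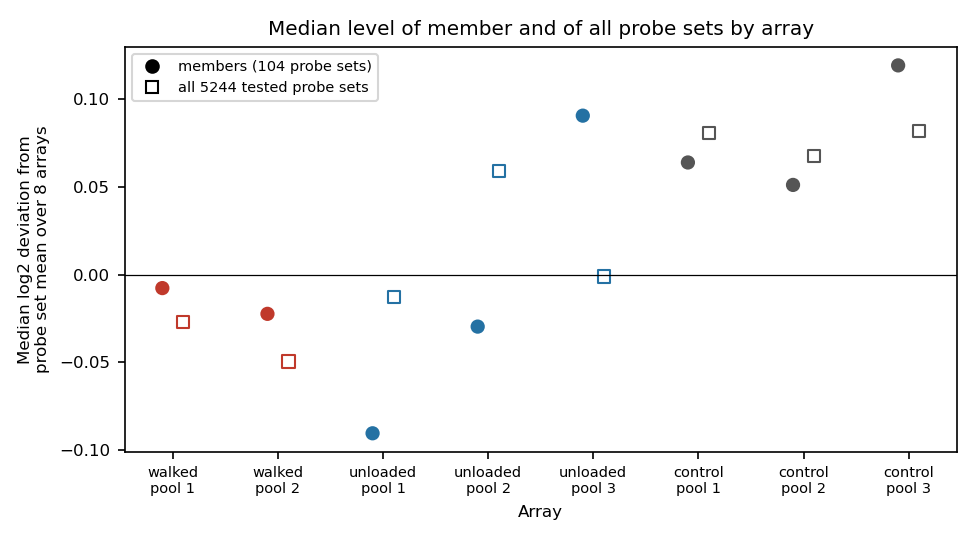
Median log2 deviation from each probe set's mean over the 8 arrays (y axis) for each array (x axis), for the 104 tested members (filled circles) and for all 5244 tested probe sets (open squares). The members' medians run from -0.09 in unloaded pool 1 to 0.12 in control pool 3, so with this scaling the arrays differ little in the general level of these genes.

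With arrays rescaled to a common trimmed mean, the general level of the set moved little between arrays, as the plot of array medians shows. Under quantile normalization the members' medians lay further below those of all probe sets in both comparisons with control, as given above. The median deviation of the members was -0.01 and -0.02 in walked, -0.09, -0.03 and 0.09 in unloaded, and 0.06, 0.05 and 0.12 in control arrays. Over all tested probe sets it was -0.03 and -0.05 in walked, -0.01, 0.06 and 0.00 in unloaded, and 0.08, 0.07 and 0.08 in control arrays. The 5 probe sets not tested belong to Ndufab1, Ndufb11, Ndufs4, Cox6a2 and the pseudogene symbol Cox6c-ps1, with mean signals of 12.7 to 23.4, and apart from Cox6c-ps1 each of these genes had another, tested probe set.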

How the data were processed

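Each array was 1 pool of soleus RNA. The authors deposited linear signal intensity for each probe set, computed by MAS5 according to the submitters' processing notes; the MAS5 version is not given in the sources used here, nor is its scaling target. The method subtracts a background estimate, so dim signals are noisy. The deposited intensity values had 2% trimmed means of 148.4 to 148.8 on all arrays.

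Arrays were rescaled to a common 2% trimmed mean (148.6). The 10th percentile of all values (4.10) served as a floor before log2. A filter removed probe sets whose mean over the arrays fell under the 40th percentile (25.8). One linear model was fitted to all 5244 tested probe sets and 8 arrays with limma 3.58.1 in R 4.3.3 (two-sided eBayes with trend, 5 residual degrees of freedom), and p-values were adjusted by Benjamini-Hochberg over all 5244. The steps were tested on simulated data. With 3 against 3 or 3 against 2 arrays, the smallest exact permutation p for a single gene is 0.1, so calls rest on the spread pooled across probe sets; the number of arrays limits the precision, and depth has no meaning for arrays.

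Symbols came from the platform annotation, where 7006 probe sets carried 1 symbol, 308 several and 1426 none; 6985 of the 7006, and all 109 members, were matched in the GRCr8 gene table. The members, the other gene lists and the rule for named genes were chosen with earlier results of these data known. Named are all called members, all other probe sets of those genes, the members with the highest and lowest mean signal in each complex, the largest uncalled differences, and genes with several probe sets. Alternatives were quantile normalization, no rescaling, other floors and filters, no trend, 2 groups only, the pool number as a block, gene means, plain probe set names only, and leaving out each array.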

Additional observations from a re-analysis of the deposited data

How the results depend on the processing

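Of the 14 member probe sets called in unloaded against control, Ndufs1, Atp5pd, Ndufa5, Ndufb3, Cox7b and Atp5pf were called under every alternative that tested them. No alternative reversed the direction of a call; members without a call were not followed in this way. No alternative was left out. With no filter on low signal, which adds dim probe sets to the adjustment, 9 members were called in unloaded against control and 9 in walked against control, and 228 and 216 of all probe sets. Without a mean-variance trend, 9 members were called in walked against control, and 243 and 211 of all probe sets in unloaded and walked against control. Averaging the probe sets of each gene, which leaves fewer features to test, gave 209 calls over all features for unloaded against control, 146 for walked against unloaded and 317 between walked and control. Probe sets with plain names, also fewer, gave 230 calls over the array for unloaded against control and 124 for walked against unloaded, 13 members in walked against control, 0 members in walked against unloaded, where Slc25a5 is not in the fit, and a median member log2 fold change of 0.0020 in unloaded against control. Quantile normalization put that median at -0.20 in walked against control; for that setting the cause was not tested.

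Leaving out single arrays (without a walked pool, the lone walked array is assumed to vary like the other groups) gave 10 to 18 called members for unloaded against control, 1 to 3 for walked against unloaded and 6 to 25 for walked against control, and 230 to 405, 120 to 261 and 104 to 504 calls over all probe sets; the medians of members ranged from -0.10 to -0.04, from -0.0065 to 0.06 and from -0.15 to -0.07. Pool numbers are shared across groups. The r of deviations from the group mean was -0.07 to 0.05 over 7 same-numbered pairs, against -0.07 to 0.11 over 14 other pairs. Of 8 arrays, 3 correlated best with their own number. In a group of 2 the deviations mirror each other, so pairs with a walked array can show little. The check therefore cannot settle whether same-numbered arrays deviate together. With the pool number as a replicate block, 17 members were called for unloaded against control, 1 for walked against unloaded and 16 for walked against control, and the last gave 251 calls over all probe sets. The block lost the walked against control calls of Coa3, Ndufaf3, Ndufb8 and 1 Uqcc2 probe set and no other named call.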

Other observations

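Several members had arrays far from the rest of their group, in values that belong to no call with all arrays. Both probe sets of Cox7a2l, an assembly factor of supercomplexes, were low in walked pool 2, with signals of 83.4 and 206, against 580 and 948 in walked pool 1. Both tested probe sets of Ndufs4, an accessory subunit needed for the last steps of complex I assembly, were low in control pool 3, with 91.3 and 345, against 344 and 811 in control pool 1 and 402 and 936 in control pool 2. Ndufb9 was spread over the control pools, at 3699, 1069 and 1905 in pools 1, 2 and 3, with unloaded arrays at 3012 to 3609. Without control pool 1, limma called it higher in unloaded over control (1.19, adjusted p = 0.0106) and in walked over control (1.32, adjusted p = 0.0111). Control pool 2 was low for 1 of the tested probe sets of Ndufab1, the mitochondrial acyl carrier protein, at 126, against 675 and 631. The other tested Ndufab1 probe set had 1510 in that pool, against 1999 and 2280. These arrays were picked for their values, and none of the differences between arrays of one group was tested.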
